A study of Homo sapiens with 6 samples.

Results

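The library described here carries the label of a 5637 cell line with a control hairpin (5637 sh-NC), and it was set beside the 3 libraries of UM-UC-3 cells, each by itself and as a mean. It is 1 of 6 libraries of the series, and these 4 libraries were compared over the 12045 genes, of 50867 with values, whose mean over the 4 was at least 1 FPKM (fragments per kilobase of gene, scaled to the total of the library). Both names belong to established human bladder cancer lines, 5637 being epithelial and UM-UC-3 mesenchymal in its marker genes. The hairpins were delivered by lentivirus and the cells were selected with puromycin, sh-NC being a control hairpin and sh-LNMAT1#1 and sh-LNMAT1#2 a pair of hairpins against the long noncoding RNA LNMAT1. The labels give 1 library per hairpin and line and no replicate, so no difference between libraries can be set against replicates, and line, culture and library cannot be told apart. The library is called the 5637-labelled library from here on. All 4 libraries share the lentiviral vector and the selection, and the UM-UC-3 libraries number 3, 1 for each hairpin. The question is which gene programs set the library labelled 5637 sh-NC apart from all of the UM-UC-3 libraries, and which it has in common with each of them.

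Marker genes went against the 5637 label. Of 15 epithelial markers, 2 reached 1 FPKM in the 5637-labelled library and 2 in each UM-UC-3 library, and 12 did so in 5637 sh-LNMAT1#1 and in 5637 sh-LNMAT1#2. CDH1, which encodes the adhesion protein E-cadherin, was 0.00924 FPKM in the 5637-labelled library, at most 0.00931 FPKM in the UM-UC-3 libraries, and 19.2 and 14.1 FPKM in the 5637 sh-LNMAT1 libraries. The 2 markers that reached 1 FPKM in these 4 libraries were LAMB3, at 19.9 FPKM, and PERP, at 50.2 FPKM. Of 6 mesenchymal markers, 4 reached 1 FPKM in the 5637-labelled library, 4 or 5 in each UM-UC-3 library and 3 in each 5637 sh-LNMAT1 library, so this list separated the lines less than the epithelial one. VIM (vimentin) was 103 FPKM in the 5637-labelled library, between 116 and 332 FPKM in the UM-UC-3 libraries, and 3.85 and 4.14 FPKM in the 5637 sh-LNMAT1 libraries. ZEB1, a repressor of epithelial genes, was 12.6 FPKM in the 5637-labelled library, between 8.67 and 12.7 FPKM in the UM-UC-3 libraries and under 1 FPKM in the others. FN1 (fibronectin) is a mesenchymal marker that ran the other way, at 0.884 FPKM in the 5637-labelled library, between 0.816 and 2.27 FPKM in the UM-UC-3 libraries, and 109.6 and 102 FPKM in the 5637 sh-LNMAT1 libraries, so by its level too the library lay with UM-UC-3. CDH2 (N-cadherin) was present in all of them, at 21.5 FPKM in the 5637-labelled library, between 17.5 and 24.8 FPKM in the UM-UC-3 libraries, and 8.18 and 11.9 FPKM in the others. Over the 12045 genes the library differed at least 2-fold from 5637 sh-LNMAT1#1 in 3928 genes and from 5637 sh-LNMAT1#2 in 3758 genes. The UM-UC-3 libraries differed from 5637 sh-LNMAT1#1 in 3443 to 3830 genes and from 5637 sh-LNMAT1#2 in 3248 to 3691 genes. The filter did not use the 5637 sh-LNMAT1 libraries, so genes expressed in those alone are missing from these counts. Among 11 markers of leukocytes, endothelium and fibroblasts, 1 (CD68, a lysosomal protein, 30.98 FPKM) reached 1 FPKM in the library, PTPRC and LYZ were listed at 0, and the summed level of the 11 was between 13.5 and 31.3 FPKM over these 4 libraries.

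The targeted RNA, listed as LINC01296 on chromosome 14 of GRCh38 from 19284653 to 19337730, was 11.7 FPKM in the 5637-labelled library, against 14.2 under sh-NC, 6.196 under sh-LNMAT1#1 and 6.702 FPKM under sh-LNMAT1#2 in UM-UC-3. By this gene the library lay nearest to UM-UC-3 sh-NC, from which it differed by -0.26 on the scale of log2(FPKM + 0.5), and it was 0.87 above sh-LNMAT1#1. LINC01296 shares sequence with DUXAP8 on chromosome 22, whose first of 2 entries was 2.48, 1.34, 1.703 and 0.698 FPKM and whose second was 6.38, 0.260, 3.32 and 1.26 FPKM in the same order, so these levels are uncertain. CCL2, a chemokine, was 3.78 FPKM in the 5637-labelled library, against 25.2 under sh-NC, 3.36 under sh-LNMAT1#1 and 6.78 FPKM under sh-LNMAT1#2 in UM-UC-3, and lay nearest to sh-LNMAT1#1. The depth read from single-exon genes was between 22279000 and 24707000 fragments in the 4 libraries.

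Interferon-stimulated genes are switched on when interferons, released by cells that sense viral or misplaced nucleic acid, act on neighbouring cells or on the same cell. The signal runs through transcription factors that include STAT2 and IRF9 and bind a short DNA element, the interferon-stimulated response element, near the start of these genes. NF-kB is a separate family of transcription factors that tumour necrosis factor and related ligands release from inhibitors in the cytosol, and its targets include those inhibitors, survival genes and chemokines.

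The library lay far closer to UM-UC-3 sh-LNMAT1#1 than to the other two UM-UC-3 libraries. Against sh-LNMAT1#1 it differed at least 2-fold in 133 of 12045 genes (56 higher, 77 lower), that is 0.465% of genes higher and 0.639% lower. Against UM-UC-3 sh-NC it differed in 1289 genes, 615 of them higher (5.11%) and 674 lower (5.6%), and against sh-LNMAT1#2 in 1025 genes, 501 higher (4.16%) and 524 lower (4.35%). The 3 pairs of UM-UC-3 libraries differed in 1323 genes (sh-NC and sh-LNMAT1#1), 415 genes (sh-NC and sh-LNMAT1#2) and 1071 genes (both sh-LNMAT1). So the 5637-labelled library and UM-UC-3 sh-LNMAT1#1 formed the closest of the 6 pairs, with a median absolute difference over genes of 0.15 on the log2 scale against 0.23 for the next pair and 0.35 to 0.38 for the rest. As a check for 1 library listed under both names, the fragment counts of this pair were compared over 1808 single-exon genes with at least 20 fragments in the pair. The median chi-square was 1.12, the lowest of the 6 pairs, the others lying between 1.68 and 4.06. Counting noise alone gives 0.455. The 133 genes above already show that the columns are not the same counts, and the chi-square adds nothing to that. It cannot tell whether both columns came from the same cells, since separate libraries exceed counting noise in any case.

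**Figure D1:**
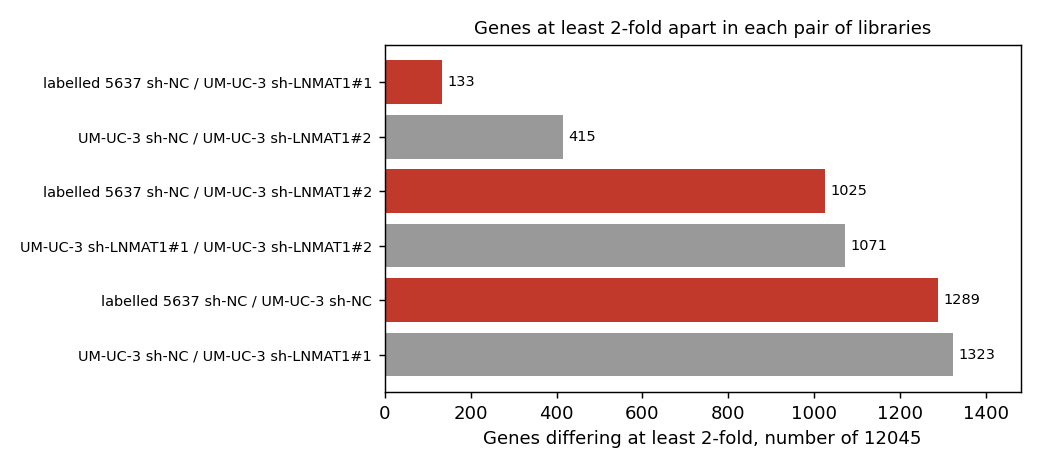
Bars give the number of genes, of 12045, that differed at least 2-fold on the log2(FPKM + 0.5) scale in each pair of the 4 libraries, with red for pairs that hold the 5637-labelled library. Its pair with UM-UC-3 sh-LNMAT1#1 holds the fewest, 133, and its pair with UM-UC-3 sh-NC holds 1289.

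Gene by gene, UM-UC-3 sh-LNMAT1#1 was the nearest of the 3 UM-UC-3 libraries in 7537 genes (62.6%), sh-LNMAT1#2 in 2394 and sh-NC in 2114. Where sh-LNMAT1#1 was at least 2-fold above UM-UC-3 sh-NC (693 genes), the library lay within 0.5 log2 units of sh-LNMAT1#1 in 550 genes and of sh-NC in 35. Where sh-LNMAT1#1 was at least 2-fold below UM-UC-3 sh-NC (630 genes), it lay within 0.5 log2 units of sh-LNMAT1#1 in 507 genes and of sh-NC in 27. By most of the genes that separate sh-LNMAT1#1 from sh-NC in UM-UC-3, the library therefore lay with sh-LNMAT1#1. LINC01296 itself was listed nearest to sh-NC, but its level is uncertain. Both entries of DUXAP8, with which it shares sequence, lay nearest to sh-LNMAT1#1.

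Genes counted as apart were those at least 2-fold from each of the 3 UM-UC-3 libraries in the same direction. There were 12 higher (0.0996% of genes) and 26 lower (0.216%). Interferon-stimulated genes made up 14 of the 26 lower genes and 0 of the 12 higher ones. These 14 were IFI6, IFIT1, IFIT2, IFIT3, DDX58, IFIH1, OAS1, OAS2, OAS3, OASL, IFI44, IFI35, DDX60 and PARP9.

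Of 41 interferon-stimulated genes listed, 37 passed the filter. Of these 37, the 5637-labelled library was at least 2-fold below UM-UC-3 sh-NC in 36, below sh-LNMAT1#2 in 35 and below sh-LNMAT1#1 in 14, and above in 0. Their median difference was -2.39 from sh-NC, -2.50 from sh-LNMAT1#2 and -0.83 from sh-LNMAT1#1, and over all genes these medians were -0.0023, -0.043 and -0.012. The library had the lowest value of the 4 in 37 of 37 (24.9% of all genes), and it was the highest of the 4 in 0 (21.5% of all genes). In 36 of 37 the order from low to high was this library, then sh-LNMAT1#1, then the other two (18% of all genes), GBP2 being the exception. The median of sh-LNMAT1#1 minus UM-UC-3 sh-NC over the list was -1.41, and that of sh-LNMAT1#2 minus sh-NC was 0.11.

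The genes of largest difference encode sensors and effectors of the response to viral RNA. IFI6, an interferon-inducible membrane protein, was 8.41 FPKM in the 5637-labelled library, against 296 under sh-NC, 32.3 under sh-LNMAT1#1 and 349.9 FPKM under sh-LNMAT1#2 in UM-UC-3. The UM-UC-3 libraries were thus 35.2-fold, 3.84-fold and 41.6-fold above it, in that order. IFIT3, which with its relatives binds viral RNA, was 2.79 FPKM in the 5637-labelled library, against 82.3 under sh-NC, 11.5 under sh-LNMAT1#1 and 83.4 FPKM under sh-LNMAT1#2 in UM-UC-3, and IFIT1 was 1.18, 34.03, 5.53 and 46.1 FPKM in the same order. In both genes this library was lowest, sh-LNMAT1#1 next, and sh-NC and sh-LNMAT1#2 close together at the top. IFIT2 was 1.04, 8.24, 3.01 and 11.1 FPKM, and IFIT5, which missed the 2-fold step against sh-LNMAT1#1 with a difference of -0.32, was 9.37, 32.1, 11.8 and 24.5 FPKM. IFIT2, IFIT3, IFIT1 and IFIT5 lie in a row on chromosome 10 of GRCh38 between 89301955 and 89421001.

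Of the RNA sensors, DDX58 (RIG-I) was 7.93 FPKM in the 5637-labelled library, against 125 under sh-NC, 21.4 under sh-LNMAT1#1 and 157 FPKM under sh-LNMAT1#2 in UM-UC-3, and IFIH1 (MDA5) was 1.22, 13.8, 4.28 and 15.5 FPKM in the same order. DDX60, a helicase reported to assist such sensing, was 1.63, 12.2, 4.44 and 16.9 FPKM. The 3 genes followed the same order of libraries as the IFIT genes, with differences from sh-LNMAT1#1 between -1.48 and -1.22. The oligoadenylate synthetases, which make the messenger that activates RNase L, lie side by side on chromosome 12 between 112906777 and 113011723. OAS3 was 3.17 FPKM in the 5637-labelled library, against 51.3 under sh-NC, 9.19 under sh-LNMAT1#1 and 38.7 FPKM under sh-LNMAT1#2 in UM-UC-3, and OAS1 was 0.567, 8.87, 2.02 and 8.01 FPKM in the same order. OAS2 was 0.0631, 5.901, 0.805 and 3.05 FPKM, its value in this library standing for at most 8.87 fragments. The related gene OASL was 1.24, 8.15, 3.32 and 9.38 FPKM. All of the OAS genes were lowest in this library, and the largest synthetase, OAS3, showed differences of -3.82, -1.40 and -3.42 from sh-NC, then sh-LNMAT1#1, then sh-LNMAT1#2.

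IFI44 was 6.32, 36.1, 17.3 and 35.5 FPKM, IFI35 was 1.58, 9.68, 3.95 and 12.5 FPKM, and PARP9, an ADP-ribosyltransferase family member that works with the ubiquitin ligase DTX3L, was 1.79, 14.6, 4.25 and 15.3 FPKM, again in the order of this library, UM-UC-3 sh-NC, then sh-LNMAT1#1, then sh-LNMAT1#2. DTX3L itself lay just outside the threshold, at a difference of -0.997 from sh-LNMAT1#1, with 7.24, 51.6, 14.9 and 47.1 FPKM. ISG15, a ubiquitin-like modifier, also lay just outside, at 20.8, 146, 40.6 and 249.5 FPKM and a smallest difference of -0.95. TRANK1, no member of the list, lay just inside at -1.04, with 0.290, 6.15, 1.12 and 4.27 FPKM.

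The transcription factors of the pathway were lower by smaller amounts. STAT2 was 2.399 FPKM in the 5637-labelled library, against 6.72 under sh-NC, 2.92 under sh-LNMAT1#1 and 5.52 FPKM under sh-LNMAT1#2 in UM-UC-3, IRF9 was 5.298, 15.8, 8.92 and 14.5 FPKM in the same order, and a gene with a clone name overlaps IRF9 on its strand. IRF7, which amplifies the response, was 1.83, 4.99, 2.33 and 5.804 FPKM, and IRF1 was 1.17, 6.69, 1.69 and 6.64 FPKM. Differences of these 4 genes from sh-LNMAT1#1 lay between -0.70 and -0.24, and those from UM-UC-3 sh-NC between -2.10 and -1.24. XAF1, a proapoptotic gene, was 0.00335, 2.85, 0.263 and 2.897 FPKM, and CMPK2, a mitochondrial nucleotide kinase, was 0.0450, 2.46, 0.391 and 3.47 FPKM. Their values in this library stand for at most 0.497 and 4.34 fragments, at or near the floor of 3 fragments, so no fold is given. RSAD2 (viperin) was 0.119, 3.99, 0.599 and 5.703 FPKM.

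Genes of MHC class I and antigen processing followed in part. Of 16, the library was at least 2-fold below UM-UC-3 sh-NC in 8, below sh-LNMAT1#2 in 7 and below sh-LNMAT1#1 in 0. Over all genes these shares were 5.6%, 4.35% and 0.639%. The medians of the 16 were -0.98, -0.93 and -0.31. HLA-B was 33.7 FPKM in the 5637-labelled library, against 116 under sh-NC, 53.5 under sh-LNMAT1#1 and 157 FPKM under sh-LNMAT1#2 in UM-UC-3, B2M (beta-2-microglobulin) was 14.2, 30.2, 17.5 and 32.9 FPKM, and the immunoproteasome subunit PSMB9 was 0.908, 4.76, 1.65 and 3.98 FPKM in the same order. HLA-E went the other way, at 78.9, 51.8, 88.2 and 71.5 FPKM. In 15 of 16 genes, HLA-E being the exception, the library was the lowest of the 4. HLA genes share sequence with each other, so the split of reads among them is uncertain.

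The 5637 sh-LNMAT1 libraries give these levels a reference. Summed over the interferon list, the level was 121 FPKM in the 5637-labelled library, 1141 under sh-NC, 259 under sh-LNMAT1#1 and 1314 FPKM under sh-LNMAT1#2 in UM-UC-3, and 213 and 158.5 FPKM in 5637 sh-LNMAT1#1 and sh-LNMAT1#2. The library therefore had the lowest sum of the 6. IFI6 was 7.16 and 3.196 FPKM in the 5637 sh-LNMAT1 libraries, both under its 8.41 FPKM here. DDX58 was 8.94 and 6.98 FPKM there, on either side of its 7.93 FPKM here, while OAS3, at 20.8 and 11.8 FPKM, was higher there.

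Promoter sequences of RefSeq (GRCh38.p14, 250 bases before to 50 after the start) were given for 29 of the 37 genes. A core of the interferon-stimulated response element (TTTC, any 2 bases, TTTC, on either strand), chosen after the values were seen, was in 19 of the 29 (65.5%) and in 8 of the 11 found among the 14 apart genes (72.7%), against 4.38% of 27305 genes in the table. The element was in 0 of 6 promoters found among the other 12 lower genes and in 0 of 6 among the higher ones. With 6 promoters each, those counts cannot be told from the 4.38% of the table. The share among the apart genes was near that of the whole list, which was chosen as interferon-stimulated. The element therefore says nothing of what sets this library apart. The following stretches come from the 8 promoters of apart genes that hold it and are shown because these genes stood at least 2-fold below every UM-UC-3 library, 5′ to 3′ on the gene's strand, with each match in capitals. IFI6 holds 3 matches, IFIH1 holds 3 of which 2 overlap, and IFIT1, IFIT3, OAS3 and DDX60 hold 2 each. A match describes the letters and is no evidence of binding.
IFI6, chr1:27672216-27672363, minus strand: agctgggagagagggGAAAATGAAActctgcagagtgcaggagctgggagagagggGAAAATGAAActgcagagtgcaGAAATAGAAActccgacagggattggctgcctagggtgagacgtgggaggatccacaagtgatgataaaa
IFIT3, chr10:89327826-89327944, plus strand: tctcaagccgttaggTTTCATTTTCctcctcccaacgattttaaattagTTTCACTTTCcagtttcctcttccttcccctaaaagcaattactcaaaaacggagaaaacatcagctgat
IFIT1, chr10:89392492-89392589, plus strand: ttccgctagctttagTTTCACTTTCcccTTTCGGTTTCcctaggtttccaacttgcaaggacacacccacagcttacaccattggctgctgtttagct
OAS3, chr12:112938316-112938473, plus strand: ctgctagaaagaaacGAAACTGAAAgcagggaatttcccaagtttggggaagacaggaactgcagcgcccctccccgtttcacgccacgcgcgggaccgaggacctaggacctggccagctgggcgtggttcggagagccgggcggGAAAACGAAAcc
IFI44, chr1:78649756-78649788, plus strand: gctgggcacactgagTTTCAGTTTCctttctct
IFIH1, chr2:162318685-162318858, minus strand: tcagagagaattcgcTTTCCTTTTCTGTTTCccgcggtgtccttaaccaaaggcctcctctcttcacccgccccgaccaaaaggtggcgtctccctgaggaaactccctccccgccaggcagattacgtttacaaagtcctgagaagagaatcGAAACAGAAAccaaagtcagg
DDX60, chr4:168318753-168318855, minus strand: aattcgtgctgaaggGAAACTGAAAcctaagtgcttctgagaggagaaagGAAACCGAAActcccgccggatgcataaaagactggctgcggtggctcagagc
PARP9, chr3:122564301-122564356, minus strand: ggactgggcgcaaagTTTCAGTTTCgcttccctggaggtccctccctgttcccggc

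No gene passed the test against the UM-UC-3 libraries as replicates. In limma, with the spread taken from the 3 UM-UC-3 libraries (2 residual degrees of freedom) and Benjamini-Hochberg adjustment, 0 genes (0%) were called higher and 0 (0%) lower at an adjusted p under 0.05. At an unadjusted limma p under 0.05 there were 176 of 12045 genes, 74 higher and 102 lower, and the smallest adjusted p was 0.139. Among the 176 were 37 of the 38 apart genes. The apart genes were chosen from the same 4 libraries, so their small p-values follow from that choice and lend them no support. IFI6 gave a difference of -4.08 ± 1.29 (SE) from the UM-UC-3 mean with a limma adjusted p of 0.989, and IFI44 gave -2.07 ± 0.48 with a limma adjusted p of 0.989. Those p-values measure only the spread between UM-UC-3 libraries that carry different hairpins, and the lone library is assumed to vary like them. For interferon genes that spread was itself wide, IFI6 ranging from 32.3 to 349.9 FPKM. Without sh-LNMAT1#1, limma gave 14 genes higher and 38 lower on 1 residual degree of freedom. That library is the nearest to the one tested and the furthest from the other two, so these calls follow from which library was left out and support no result.

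Outside the interferon list, 12 genes were apart on the lower side. SEMA4B, a semaphorin, was 2.26 FPKM in the 5637-labelled library, against 8.06 under sh-NC, 5.19 under sh-LNMAT1#1 and 7.05 FPKM under sh-LNMAT1#2 in UM-UC-3, and SH2D5, an adaptor protein, was 3.12, 8.85, 7.78 and 15.1 FPKM in the same order. COX7A2L, which takes part in assembling respiratory supercomplexes, was 5.92, 13.01, 15.99 and 14.2 FPKM. In these 3 genes the 5637-labelled library was lowest and did not overlap the range of the UM-UC-3 libraries, which is how they were chosen. The pseudogenes NPIPP1 (0.521, 1.97, 2.32 and 1.93 FPKM) and CENPBD1P1 (1.56, 4.09, 4.07 and 7.33 FPKM) were low as well, and they share sequence with their parent genes.

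On the higher side, CLEC11A, a secreted growth factor of the C-type lectin family, was 7.31 FPKM in the 5637-labelled library, against 1.797 under sh-NC, 0.845 under sh-LNMAT1#1 and 2.52 FPKM under sh-LNMAT1#2 in UM-UC-3, 2.90-fold or more above each UM-UC-3 library. H2AFJ, a histone variant gene, was 23.7, 6.08, 2.296 and 8.48 FPKM in the same order. TERF2IP (RAP1), a telomere-bound protein, was 20.8, 7.19, 8.69 and 8.29 FPKM, and PRSS23, a serine protease, was 6.11, 2.69, 1.99 and 2.12 FPKM. UMAD1, a gene of little known function, was 4.55, 0.859, 1.26 and 0.914 FPKM. In TERF2IP, PRSS23 and UMAD1 the 3 UM-UC-3 values lay close together and the library stood above all of them. GDF15, a secreted stress cytokine of the TGF-beta superfamily and a p53 target, was 6.997, 1.63, 2.93 and 3.23 FPKM and lay just inside the threshold, at a smallest difference of 1.01.

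Several apart genes overlap another gene on the same strand, where reads can be assigned to either. This held for 5 of the 12 higher and 6 of the 26 lower genes, against 8.94% of all genes kept. UPK3BL on chromosome 7 was 7.67 FPKM in the 5637-labelled library and listed at 0 in each UM-UC-3 library. RP11-577H5.5, which overlaps it, was listed at 0 in the library and stood at 8.97 under sh-NC, 7.64 under sh-LNMAT1#1 and 6.54 FPKM under sh-LNMAT1#2 in UM-UC-3. The pair stood in opposite directions, and in the 5637 sh-LNMAT1 libraries UPK3BL was 10.997 and 10.9 FPKM and RP11-577H5.5 0.120 and 0.0323 FPKM. TOMM6, a subunit of the mitochondrial import pore, was 76.3, 19.4, 11.3 and 0.851 FPKM and its neighbour PRICKLE4 0.928, 3.62, 5.15 and 6.098 FPKM in the order of this library, sh-NC, then sh-LNMAT1#1, then sh-LNMAT1#2, again in opposite directions. MINOS1-NBL1 (7.33, 0.545, 2.61 and 3.41 FPKM), CORO7-PAM16 (0, 1.01, 1.64 and 1.47 FPKM) and SYS1-DBNDD2 (1.23, 3.12, 3.14 and 3.601 FPKM) are readthrough genes that share exons with their parts, and their levels are uncertain. Without genes overlapping another on the same strand, 7 genes were higher and 20 lower, and the 14 interferon genes were among the 20.

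Most of what distinguished the library from UM-UC-3 sh-NC and sh-LNMAT1#2 it had in common with sh-LNMAT1#1. A gene was counted as shared with 1 UM-UC-3 library alone when it lay within 0.5 log2 units of that library and at least 2-fold from the other two in the same direction. With sh-LNMAT1#1 alone, 205 genes were shared on the higher side (1.7%) and 251 on the lower side (2.08%). With sh-NC alone there were 0 on the higher (0%) and 6 on the lower side (0.0498%), and with sh-LNMAT1#2 alone 4 higher (0.0332%) and 5 lower (0.0415%). Of the 37 interferon-stimulated genes kept, 10 were shared with sh-LNMAT1#1 alone on the lower side. In 36 of the 37, sh-LNMAT1#1 was the nearest UM-UC-3 library (62.6% of all genes). Over all genes, 5.11% were at least 2-fold higher and 5.6% lower than in sh-NC. Against sh-LNMAT1#2 these shares were 4.16% and 4.35%, and against sh-LNMAT1#1 0.465% and 0.639%. A count of 0 against sh-LNMAT1#1 in a list below is near those last shares and is no result about that list.

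NF-kB genes were among those shared with sh-LNMAT1#1 on the lower side. Of 16 subunits and feedback genes kept, the library was at least 2-fold below UM-UC-3 sh-NC in 10, below sh-LNMAT1#2 in 9 and below sh-LNMAT1#1 in 0, and 8 met the rule for sharing. The median differences were -1.20, -1.18 and -0.10. TRAF1, an adaptor of tumour necrosis factor receptors, was 2.23 FPKM in the 5637-labelled library, against 75.6 under sh-NC, 2.49 under sh-LNMAT1#1 and 39.8 FPKM under sh-LNMAT1#2 in UM-UC-3. BIRC3, an inhibitor of apoptosis, was 9.35, 149, 9.72 and 113 FPKM in the same order. Both genes were over 10-fold lower in this library and in sh-LNMAT1#1 than in the other two.

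The inhibitors of the pathway were lower with them. NFKBIA was 11.5, 28.01, 11.9 and 46.6 FPKM, NFKBIE was 2.53, 10.4, 2.68 and 6.86 FPKM and TNFAIP3, a ubiquitin-editing enzyme that shuts the signal off, was 1.51, 4.22, 1.59 and 8.89 FPKM. CD83, a surface protein, was 3.08, 19.5, 3.87 and 14.3 FPKM, and the subunit gene RELB was 7.73, 16.3, 8.43 and 17.5 FPKM. RELA did not follow, at 5.29, 7.31, 5.53 and 5.101 FPKM, and NFKBIB was higher than in UM-UC-3 sh-NC, at 24.9, 11.3, 18.04 and 28.1 FPKM. The ligand TNF was 0.0532, 1.84, 0.161 and 4.63 FPKM, its value in this library standing for 2 fragments, and TNFRSF9 (4-1BB) was 0.239, 2.79, 0.310 and 2.54 FPKM. In this library and sh-LNMAT1#1 TNF stood at most at 0.161 FPKM and in the other two at 1.84 FPKM or above.

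A kB element (GGG, any 2 bases, TTTCC, on either strand), also chosen after the values were seen, was in 7 of the 13 promoters found for the NF-kB list (53.8%), against 2.33% of genes in the table, and in 3 of the promoters of the 8 shared genes. The list was chosen as NF-kB genes, so its share above that of the table follows from this choice. NFKB1, NFKB2, NFKBIB and NFKBIZ held the element too and did not meet the rule for sharing. The element therefore says nothing of what the library has in common with sh-LNMAT1#1. The 3 promoters of shared genes, those of BIRC3, NFKBIA and TNFAIP3, are shown as above, with matches in capitals.
BIRC3, chr11:102317270-102317354, plus strand: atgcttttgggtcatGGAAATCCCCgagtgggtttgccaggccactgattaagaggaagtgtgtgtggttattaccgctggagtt
NFKBIA, chr14:35404761-35404845, minus strand: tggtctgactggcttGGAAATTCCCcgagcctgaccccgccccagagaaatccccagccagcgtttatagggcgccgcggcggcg
TNFAIP3, chr6:137867177-137867258, plus strand: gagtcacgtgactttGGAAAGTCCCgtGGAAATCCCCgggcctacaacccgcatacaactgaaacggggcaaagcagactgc
The AP-1 element TGACTCA was in 0 of the 13 NF-kB promoters and in 1 of the 29 interferon promoters (3.45%, 6.05% in the table), and the ATF4 element TGATGCAA was in 0 of both (1.08% in the table). With so few promoters, these counts cannot be told from the shares in the table.

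Of 9 chemokine genes kept, 4 were at least 2-fold lower than in UM-UC-3 sh-NC, 4 lower than with sh-LNMAT1#2 and 0 lower than with sh-LNMAT1#1. CXCL8 (interleukin-8) was 48.001 FPKM in the 5637-labelled library, against 179.8 under sh-NC, 40.7 under sh-LNMAT1#1 and 158 FPKM under sh-LNMAT1#2 in UM-UC-3, CCL5 was 3.35, 12.5, 3.62 and 9.31 FPKM and CCL20 was 0.534, 2.997, 0.301 and 8.94 FPKM in the same order. CCL2 lay near sh-LNMAT1#1 but missed the rule for sharing, since it was -0.77 from sh-LNMAT1#2. CXCL1 (75.8, 73.9, 54.8 and 119 FPKM) did not follow the others. CSF2, which encodes a granulocyte and macrophage growth factor, was 0.510, 9.72, 0.399 and 3.599 FPKM. IL11, a cytokine of the interleukin-6 family, went the other way at 81.4 FPKM in the 5637-labelled library, against 7.597 under sh-NC, 72.04 under sh-LNMAT1#1 and 20.5 FPKM under sh-LNMAT1#2 in UM-UC-3, so it was 10.7-fold above sh-NC and 3.96-fold above sh-LNMAT1#2, and 1.13-fold above sh-LNMAT1#1. LIF, of the same family, was 123, 44.8, 101 and 61.97 FPKM, and the decoy death receptor TNFRSF10D was 34.7, 7.32, 37.6 and 5.15 FPKM.

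**Figure D2:**
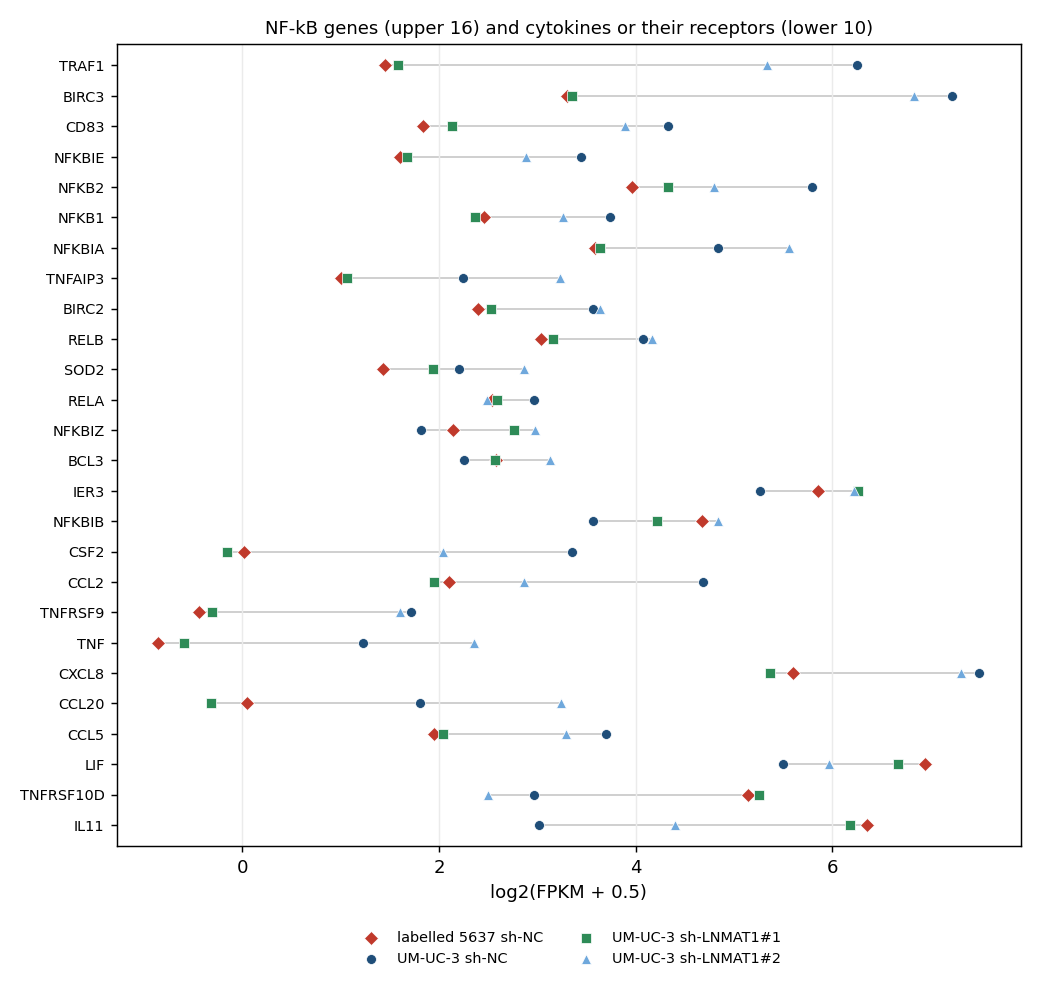
The upper 16 rows are the NF-kB genes kept and the lower 10 are cytokine and receptor genes named in the text, chosen after their values were seen, with log2(FPKM + 0.5) of each library as a symbol. CXCL1, a chemokine named in the text that did not follow the others, is not drawn. In TRAF1, BIRC3, CSF2, TNF and CXCL8 the 5637-labelled library (red) and UM-UC-3 sh-LNMAT1#1 (green) lie at the low end, and in IL11, LIF and TNFRSF10D at the high end.

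Proliferation genes were lower in this library and in sh-LNMAT1#1. Of 51 cell cycle genes, it was at least 2-fold below UM-UC-3 sh-NC in 29, below sh-LNMAT1#2 in 13 and below sh-LNMAT1#1 in 1, with medians of -1.06, -0.66 and -0.018, and it was above in 0. MKI67, the proliferation antigen Ki-67, was 8.87 FPKM in the 5637-labelled library, against 41.1 under sh-NC, 7.49 under sh-LNMAT1#1 and 22.5 FPKM under sh-LNMAT1#2 in UM-UC-3. KIF20A and KIF23, mitotic kinesins, were 7.001, 31.9, 5.54 and 18.6 FPKM and 10.7, 31.8, 10.01 and 26.9 FPKM, and CCNB1, a mitotic cyclin, was 11.2, 37.4, 8.29 and 29.5 FPKM. These mitotic genes lay slightly above sh-LNMAT1#1 and well below the other two. PCNA, the sliding clamp of replication, at 126, 163, 158 and 115 FPKM, and MCM2, of the replicative helicase, at 20.7, 25.5, 23.4 and 20.6 FPKM, lay under 2-fold from each UM-UC-3 library.

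Genes of cholesterol synthesis and uptake followed the same division. Of 29, the library was at least 2-fold below UM-UC-3 sh-NC in 14, below sh-LNMAT1#2 in 7 and below sh-LNMAT1#1 in 0, with medians of -0.87, -0.55 and -0.049. DHCR7, which catalyses the last step to cholesterol, was 11.8 FPKM in the 5637-labelled library, against 44.4 under sh-NC, 14.5 under sh-LNMAT1#1 and 38.8 FPKM under sh-LNMAT1#2 in UM-UC-3. LSS, which closes the sterol rings, was 2.39, 6.81, 2.83 and 5.999 FPKM, FDPS, which makes farnesyl diphosphate, was 5.05, 11.1, 4.57 and 13.1 FPKM, and EBP, a sterol isomerase, was 2.07, 5.01, 2.46 and 5.06 FPKM in the same order. INSIG1, which restrains the pathway, was 4.69, 3.88, 4.86 and 3.41 FPKM, under 2-fold from each UM-UC-3 library.

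Other genes shared with sh-LNMAT1#1 were higher. THBD (thrombomodulin), which turns thrombin into an activator of protein C, was 2.56 FPKM in the 5637-labelled library, against 0.0197 under sh-NC, 3.397 under sh-LNMAT1#1 and 0.0742 FPKM under sh-LNMAT1#2 in UM-UC-3. DUSP1, which inactivates MAP kinases, was 145, 33.1, 165 and 62.8 FPKM, DUSP6 was 34.8, 14.2, 39.7 and 9.91 FPKM and JUN, an AP-1 subunit, was 592, 239, 473 and 289 FPKM in the same order. Of 29 AP-1 and immediate early genes, 6 were higher and 2 lower than in UM-UC-3 sh-NC (5.11% and 5.6% of all genes). Against sh-LNMAT1#1, 0 differed 2-fold, near the shares of all genes (0.465% higher, 0.639% lower). HSPA5 (BiP), the main chaperone of the endoplasmic reticulum, was 880.1, 262, 886 and 329 FPKM, and DNAJC3, a co-chaperone there, was 26.7, 10.1, 22.7 and 8.61 FPKM, but 2 of 20 genes of the unfolded protein response passed the 2-fold step against sh-NC. Of 22 p53 targets, 5 were higher than in sh-NC, with ZMAT3 at 7.33, 2.595, 6.29 and 1.37 FPKM, DDB2 at 4.93, 1.897, 6.75 and 1.55 FPKM and RRM2B at 10.1, 4.59, 10.2 and 4.01 FPKM. CDKN1A (p21), the best known of these targets, was 36.3, 44.8, 43.5 and 25.9 FPKM and did not follow.

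Of 18 TGF-beta ligands and early targets, 3 were higher than in UM-UC-3 sh-NC, 1 higher than with sh-LNMAT1#1 and 3 higher than with sh-LNMAT1#2, and 0 were lower. The ligand gene TGFB1, whose record was broken and left out, is not among the 18. ID1, a nuclear regulator induced by BMP signalling, was 70.1, 17.6, 79.5 and 31.4 FPKM in the order of this library, UM-UC-3 sh-NC, then sh-LNMAT1#1, then sh-LNMAT1#2, and LTBP1, which anchors latent TGF-beta, was 6.71, 1.98, 6.24 and 2.18 FPKM. Of 15 genes of the IGF axis, 3 were higher and 1 lower than in sh-NC, among them IGFBP6, a binding protein of insulin-like growth factors, at 18.04, 7.92, 24.3 and 7.15 FPKM. In ID1, LTBP1 and IGFBP6 the library and sh-LNMAT1#1 formed the high pair.

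Of 12 genes of plasminogen activation, 4 were higher and 2 lower than in UM-UC-3 sh-NC. PLAUR, the urokinase receptor, was 31.4, 14.7, 28.3 and 12.2 FPKM, while PLAU, urokinase itself, was 140.0, 549, 208 and 317 FPKM and so went the other way. Of 20 matrix proteases and inhibitors, 6 were higher and 2 lower than in sh-NC and 0 differed 2-fold from sh-LNMAT1#1. MMP1, a collagenase, was 15.9 FPKM in the 5637-labelled library, against 1.15 under sh-NC, 8.25 under sh-LNMAT1#1 and 1.61 FPKM under sh-LNMAT1#2 in UM-UC-3, and MMP3, an activator of it, was 3.38, 0.0183, 1.48 and 0.118 FPKM. Both stood highest in this library, and both lay just outside the threshold for genes apart, with smallest differences of 0.91 and 0.97.

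Some of the largest differences shared with sh-LNMAT1#1 concern mitochondrial genes listed at 0. MT-ND4 stood at 5176 FPKM in the 5637-labelled library and at 5352 FPKM in its nearest neighbour, sh-LNMAT1#1. The other 4 libraries of the series list it at 0. MT-CO1 was listed at 0 in the library and in sh-LNMAT1#1, while UM-UC-3 sh-NC had 6422.5 and sh-LNMAT1#2 had 7143.5 FPKM. MT-CO2 was likewise listed at 0 in the same pair and was 19.6 and 20.7 FPKM in the other two. Every cell uses these genes, so an entry of 0 can be a failed estimate, and MTATP6P1, a nuclear copy, at 554 and 611 FPKM against 0.119 and 1.09 FPKM, followed the same division.

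Few genes tied the library to UM-UC-3 sh-NC or to sh-LNMAT1#2 alone. With sh-NC it shared low values of RAB11A, a GTPase of recycling endosomes (12.1, 14.3, 29.3 and 32.3 FPKM in the order used above), FOXO3B (1.59, 2.39, 5.14 and 5.79 FPKM), C17orf100 (0.530, 0.668, 2.15 and 1.88 FPKM) and the readthrough RPL17-C18orf32 (3.499, 4.66, 24.1 and 23.8 FPKM), the last of which overlaps its parts, and 2 genes with clone names. With sh-LNMAT1#2 it shared high values of TGOLN2, a protein of the trans-Golgi network (15.7, 2.21, 2.54 and 15.5 FPKM), and RAB1A, a GTPase of transport to the Golgi (47.3, 16.4, 22.1 and 33.5 FPKM), and low values of MCL1, an inhibitor of apoptosis (12.6, 35.3, 28.3 and 14.4 FPKM), AIDA (1.74, 7.72, 6.85 and 2.204 FPKM) and TRAM1 (36.9, 76.1, 79.9 and 40.6 FPKM), beside 4 genes with clone names. FOXO3B has a near-identical copy in FOXO3.

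Against sh-LNMAT1#1, the nearest library, 77 genes were at least 2-fold lower and 56 higher. The 14 interferon genes were among the 77. An interval on the fragments (exact binomial, 95%, counting error only) excluded equal levels for 71 of the 77 and 55 of the 56, and 2 and 1 genes had no length to compute it. These genes were picked for a 2-fold difference in the same values, so that outcome was nearly fixed by the choice. It says only that few of the differences rest on a handful of fragments. Genes overlapping another on the same strand made up 17 of the 77 and 27 of the 56. Beyond genes already named, S100A10, the partner of annexin A2, was 23.7, 66.2, 60.2 and 40.04 FPKM and HSPA8, the constitutive cytosolic chaperone, was 14.1, 19.3, 42.9 and 19.8 FPKM, both lower than with sh-LNMAT1#1. Higher than with sh-LNMAT1#1 were FBXO34, an F-box gene, at 5.196, 6.91, 0.885 and 5.24 FPKM, and TWF1, an actin-binding gene, at 38.4, 36.95, 11.4 and 27.9 FPKM, in the order of this library, sh-NC, then sh-LNMAT1#1, then sh-LNMAT1#2. In both genes sh-LNMAT1#1 was the low library, and the 5637-labelled library lay within 0.5 log2 units of the other two.

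Ribosomal protein genes showed a small shift in 1 direction. Their 78 genes had median differences of 0.49 from UM-UC-3 sh-NC, 0.19 from sh-LNMAT1#1 and 0.45 from sh-LNMAT1#2, and the library was the highest of the 4 in 57 of 78, against 21.5% of all genes. At the 2-fold step 3, 0 and 2 of them passed. By contrast, 21 housekeeping genes had medians of 0.019, 0.0078 and -0.10. Of 35 glycolysis and hypoxia genes, 2 were higher and 6 lower than in sh-NC, a larger share lower than the 5.6% of all genes. Of 31 NRF2 and glutathione genes 2 were higher and 2 lower, of 15 HOX genes 0 and 0, and of 74 nuclear genes of oxidative phosphorylation 1 and 1.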

How the data were processed

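RNA-seq libraries of 2 bladder cancer lines, 1 per hairpin and line (6 in all), were compared from 1 table of FPKM values that the authors deposited. The submitters' processing notes name HISAT2 and hg38, and the counting program and annotation are not given in the sources used here. The record of 1 gene, TGFB1, is broken over 2 lines and was left out, and 50867 genes were used. Genes averaging 1 FPKM or more over these 4 libraries were kept and compared as log2(FPKM + 0.5), with 2-fold as the threshold for single libraries. FPKM steps of single-exon genes gave depth, with at least 99.95% of values whole within 0.05 fragments. Fragment numbers of other genes are ranges between the shortest transcript and all exons (GENCODE 29), intervals cover counting error only, and the floor was 3 fragments. limma with a shared spread and Benjamini-Hochberg adjustment tested the library against the 3 UM-UC-3 libraries, and was tested on simulated data.

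The members, the gene lists and the tests were chosen with earlier results of these data known. Named genes were the 10 highest and 10 lowest by the smallest of the 3 differences, the 5 genes of each direction most clearly shared with 1 library, list members that were apart, shared or called, the markers and the study's own genes. Other genes were named after their values were seen. Some genes are counted but not reported here by name. Pseudocount, filter, threshold, scaling and left-out libraries were varied. Python 3.11.15, numpy 2.4.6, pandas 2.3.3, scipy 1.17.1, matplotlib 3.10.9, R 4.3.3 and limma 3.58.1 were used.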

Additional observations from a re-analysis of the deposited data

How the results depend on the processing

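No paired analysis was possible because each group holds 1 library. Of the recomputed counts over all genes, 34 moved by over 1.5 times and 56 did not, and of the recomputed counts within gene lists 3 moved and 45 did not. For genes apart from all UM-UC-3 libraries (12 higher, 26 lower), a pseudocount of 0.1 gave 50 lower and one of 1 gave 15 lower, no filter gave 30 higher, a filter of 5 FPKM gave 4 higher and 16 lower, a threshold of 1.5-fold gave 86 higher and 118 lower, and 4-fold gave 2 higher (UPK3BL and CTD-2207O23.3) and 1 lower (RP11-577H5.5). Without genes overlapping another on the same strand, an alternative chosen after seeing the data, 7 were higher. Leaving out 1 UM-UC-3 library gave 15 to 269 higher and 34 to 343 lower, the largest counts without sh-LNMAT1#1, where 2 libraries remain to differ from, and 19 higher without sh-LNMAT1#2. The limma calls (0 and 0) became 1 lower with a pseudocount of 0.1 and 462 higher and 1 lower with no filter, and 0 to 14 higher and 0 to 38 lower with 1 library left out, the highest without sh-LNMAT1#1, the library nearest to the one tested, so that these calls follow from the choice of the library left out.

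Against UM-UC-3 sh-NC a filter of 5 FPKM gave 289 higher and 325 lower. Against sh-LNMAT1#1 a pseudocount of 0.1 gave 91 higher and 129 lower, one of 1 gave 48 lower, no filter gave 112 and 150, and a filter of 5 FPKM gave 20 and 32. Against sh-LNMAT1#2 the filter of 5 FPKM gave 236 higher and 264 lower. Genes shared with sh-NC alone (6) were 10 with no filter and 2 at 5 FPKM, with sh-LNMAT1#2 alone (9) 16 and 4, and with sh-LNMAT1#1 alone (456) 221 at 5 FPKM. Interferon genes lower than sh-LNMAT1#1 were 8 with a pseudocount of 1, and cholesterol genes lower than sh-LNMAT1#2 were 4. Of 131 named genes, 7 moved with a pseudocount of 0.1, 4 with one of 1 and 1 with 75th-percentile scaling. The cause was not tested beyond what each setting changes by construction. With 1 library a group the data hold no culture error, and a left-out fit has 1 residual degree of freedom. Depth limits genes at or near 3 fragments, such as XAF1 and TNF. With no filter, limma took in 34305 genes in place of 12045. The added genes averaged under 1 FPKM, so the calls with no filter are no evidence of further differences.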
